A study of Homo sapiens with 12 samples.

Results

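The genes described here are 37 that copy the genome or supply its building blocks, among 36601 gene IDs in a table of RNA-seq counts. They were chosen by symbol, all 37 were found, and all 37 passed the filter on low counts that left 20183 genes for testing. The 12 libraries come from H9, an established line of human embryonic stem cells with a wild-type genotype per the labels, taken through a protocol aimed at γδ T cells. The labels name hematopoietic progenitor cells at day 10, T progenitor cells at days 15 and 20, and mature γδ T cells at day 25, with 3 libraries per day. All groups had received CHIR99021, BMP4, Activin A and the Rock inhibitor Y-27632 at the start, then VEGF, bFGF, Flt3L, IL-7, SCF and SB431542. The H9 cells had been grown on mouse embryonic fibroblasts. Per the labels, serum (FBS), MAP and DLL4, a ligand of Notch, were given from day 10 on along with SCF, IL-7 and Flt3L. The labels give a single batch for every library and do not say whether the libraries of a day came from separate cultures, so each p-value speaks only of how these libraries vary, and that variation may be technical.

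A cell that is about to divide licenses its replication origins by loading rings of MCM2 to MCM7 with the help of ORC, CDC6 and CDT1. CDC45 and the GINS complex then join the ring to make the active helicase. DNA polymerases alpha, delta and epsilon copy the strands around the clamp PCNA, and ribonucleotide reductase, thymidylate synthase and thymidine kinase supply deoxynucleotides. Many of these genes are transcribed around the start of S phase under E2F transcription factors, and their mRNA levels are therefore widely read as a mark of cycling cells. Early T progenitors are known to divide repeatedly in the thymus under IL-7 and Notch signals.

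Levels are CPM, counts relative to library size, with library sizes scaled by edgeR's TMM factors. Changes are log2 fold changes of the later over the earlier day ± SE from edgeR's quasi-likelihood fit, called at a Benjamini-Hochberg adjusted p under 0.05 over all genes tested. Libraries held 27026196 to 39811230 counts with 22453 to 24771 genes detected, and their TMM factors lay between 0.753 and 1.172, the lowest at day 15. Library-size scaling, which leaves these factors out, moved the median log2 fold change of all genes tested to -0.32 at day 15 against day 10, where TMM gave 0.20, and to 0.73 at day 20 against day 15, where TMM gave 0.10. The shares of all genes called higher or lower are given with TMM scaling only, so counts under library-size scaling stand beside these medians alone. In bulk RNA, fewer cycling cells and less RNA per cycling cell cannot be told apart. RNA of T cell markers was low against the labelled identity: 9 of them summed to 0.762 to 1.63 CPM at day 10, 6.43 to 7.81 at day 15, 3.56 to 4.18 at day 20 and 2.24 to 3.21 at day 25. CD3E and CD3G were at 0 at days 10 and 15, and CD3D and CD3G were at 0 at day 25.

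The replication and nucleotide genes moved nearly as a block over the 4 days. All 37 fell at day 15 against day 10, 35 rose at day 20 against day 15 (37 under library-size scaling), and 36 fell again at day 25 against day 20. With TMM scaling, the libraries of days 15 and 10 did not overlap for any of the 37, nor did those of days 20 and 15. Those of days 25 and 20 overlapped for POLE alone. The share of all genes without overlap was not counted, so these counts are not read as particular to the 37. Summed over the 37 genes, the level was 5492 ± 33.9 CPM at day 10, 1379 ± 19.1 at day 15, 2219 ± 5.07 at day 20 and 1362 ± 7.43 at day 25 (mean ± SD, n = 3 libraries per day). As a share of all counts without any scaling factor, the genes took 0.598% to 0.605% of a library at day 10, 0.103% to 0.105% at day 15, 0.256% to 0.259% at day 20 and 0.141% to 0.142% at day 25, with no overlap between any of the days. The partial return at day 20 is thus present both with and without TMM scaling. Changes were common in the whole table as well: at day 15 against day 10, 42.4% of the genes tested were called higher and 30.8% lower, and the counts of the 37 and of the other gene lists are read against these shares. The median log2 fold change of the 37 was -2.13 at day 15 against day 10, beside 0.20 over all genes tested. At day 20 against day 15, 40.6% of all genes were higher and 36% lower, and the medians were 0.84 for the 37 and 0.10 for all genes. At day 25 against day 20, 24.5% were higher and 25.1% lower, and the medians were -0.74 for the 37 and -0.03 for all genes. All 37 differed among the 4 days in the joint test, as did 90.5% of all genes.

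**Figure D1:**
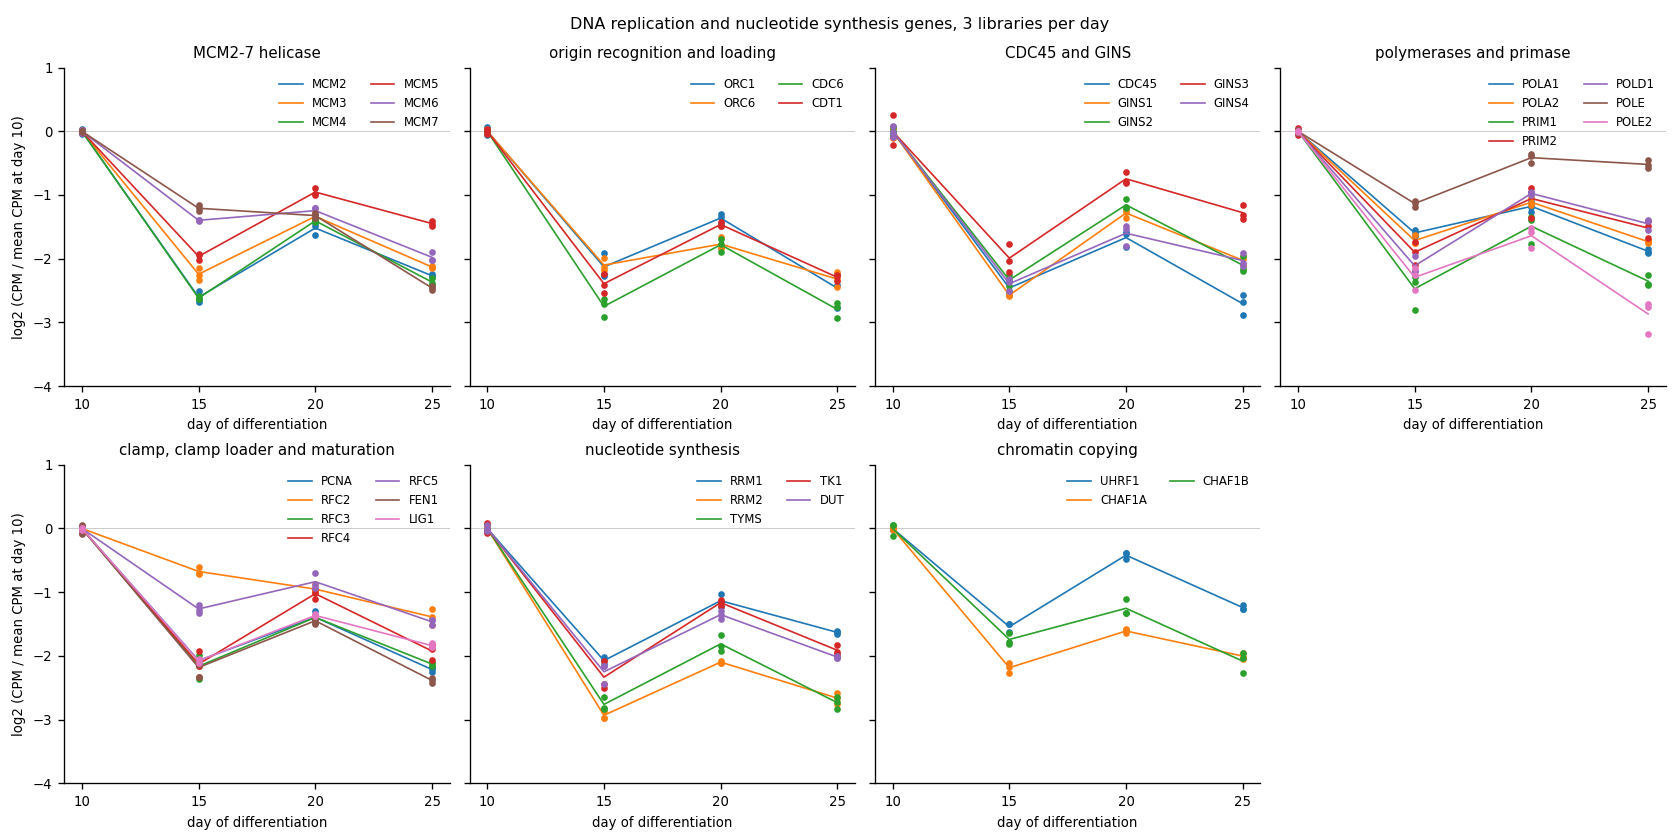
Each panel holds the genes of a role, with the day of differentiation on the x axis and log2 of CPM over that gene's mean CPM at day 10 on the y axis. Points are libraries (3 per day) and lines join the means. Every line drops at day 15, and all but those of MCM7 and RFC2, which turn up under library-size scaling, turn up again at day 20.

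No gene regained its day 10 level. All 37 were lower at day 20 against day 10 (median -1.34, beside 0.03 over all genes, of which 36.7% were higher and 34.2% lower). All 37 were also lower at day 25 against day 10 (median -2.03, beside 0.02 over all genes, of which 38.6% were higher and 36% lower). These comparisons share their day 10 libraries with that of day 15 against day 10. The libraries of the days did not overlap for any of the 37 genes in either, and the share of all genes without overlap was not counted. Ordered by mean level with TMM scaling, 23 genes ran day 10, day 20, day 25, day 15 from high to low, 12 ran day 10, day 20, day 15, day 25, and MCM7 and RFC2 ran day 10, day 15, day 20, day 25. Days 15 and 25 are the neighbours that are hardest to separate in these orders, and 6 genes did not pass the test between them.

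**Figure D2:**
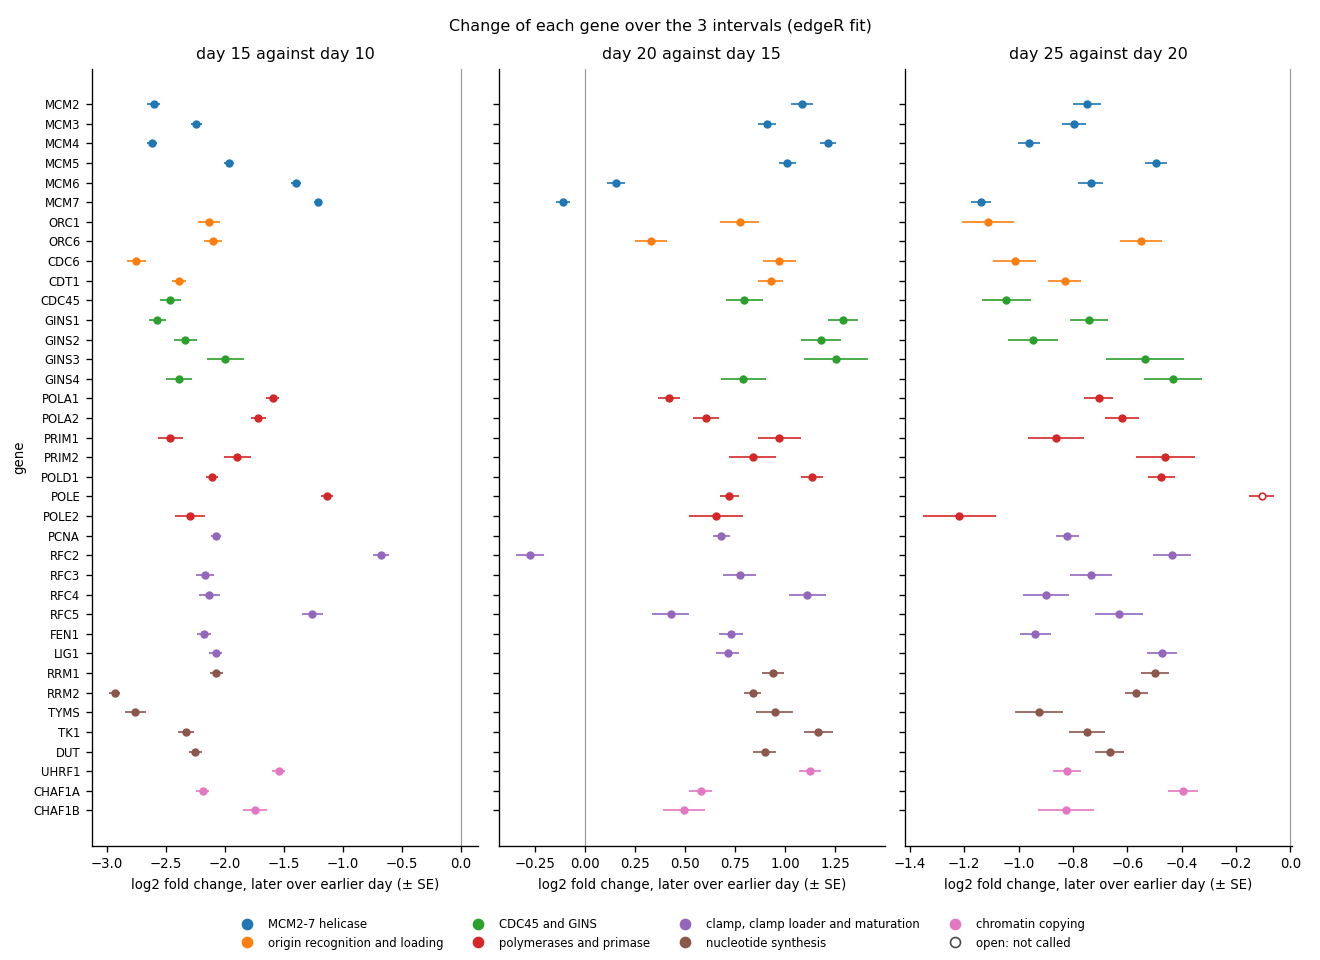
Log2 fold change of the later over the earlier day (x axis, ± SE) from the edgeR fit for each of the 37 genes (rows, coloured by role) over the 3 intervals, with filled points for called genes. Changes at day 15 run from -2.93 (RRM2) to -0.67 (RFC2), and the single open point is POLE at day 25 against day 20.

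The helicase genes MCM2 to MCM7 encode a ring of 6 subunits in equal numbers, yet their RNA did not fall in step. MCM4 (ENSG00000104738, chr8:47960185-47978160, plus strand, GRCh38 with GENCODE 29) had 401, 407 and 403 CPM on day 10, 67.2, 64.9 and 65.0 on day 15, 155, 152 and 149.8 on day 20, and 82.0, 77.1 and 75.4 on day 25. MCM2 (ENSG00000073111, chr3:127598223-127622436, plus strand) had 217, 206 and 212 CPM on day 10, 37.1, 32.9 and 34.2 on day 15, 68.1, 77.9 and 75.2 on day 20, and 44.7, 43.5 and 43.4 on day 25. For both genes the libraries of no pair of days overlapped, with day 10 highest and day 15 lowest. Both fell to a small part of the day 10 level, MCM4 to 16.3% and MCM2 to 16.4%, with log2 fold changes of -2.62 ± 0.041, adjusted p = 1.6e-40 for MCM4 and -2.60 ± 0.054, adjusted p = 4.6e-36 for MCM2. MCM3 (ENSG00000112118, chr6:52264009-52284881, minus strand) had 307, 299 and 298 CPM on day 10, 59.6, 63.3 and 67.9 on day 15, 118, 114 and 126 on day 20, and 69.8, 68.6 and 68.0 on day 25. MCM3 fell by 2.24 on the log2 scale at day 15 and regained 0.91 at day 20 (adjusted p = 1.7e-21). MCM7 (ENSG00000166508, chr7:100092728-100101940, minus strand) had 545, 549 and 549.5 CPM on day 10, 230.0, 245 and 237 on day 15, 213, 224 and 219 on day 20, and 99.9, 97.3 and 101 on day 25. Its fall at day 15 was -1.21 ± 0.035, adjusted p = 9.1e-31, and instead of turning up at day 20 it gave -0.11 ± 0.035, adjusted p = 0.0033, a small fall that became a rise of 0.51 under library-size scaling and of 0.12 with no filter on low counts. Set against the median of all genes tested, MCM7 stood at -0.22 on the log2 scale at day 20 against day 15 with TMM, with library-size scaling and with no filter. At day 25 MCM7 had the steepest fall of the helicase genes, -1.14 ± 0.036, adjusted p = 2.6e-28. MCM6 lay between the patterns, with 38.0% of its day 10 level at day 15 and 42.2% at day 20, and MCM5 held 25.6% at day 15 and 51.6% at day 20.

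Ratios between subunits within a library do not depend on how libraries are scaled. Per kilobase of merged exons, MCM7 over MCM3 was 1.51 ± 0.0309 at day 10, 3.11 ± 0.181 at day 15, 1.53 ± 0.0939 at day 20 and 1.20 ± 0.0321 at day 25 (mean ± SD, n = 3 libraries per day). The day 15 libraries, at 2.90 to 3.21, lay above every library of the other days, and those of day 25, at 1.18 to 1.24, lay below them. MCM6 over MCM3 was also highest at day 15, at 0.711 ± 0.0131, 1.28 ± 0.0894, 0.757 ± 0.0275 and 0.790 ± 0.0335 for days 10, 15, 20 and 25. MCM5 over MCM3 instead climbed with each day, at 0.499 ± 0.0109, 0.606 ± 0.0274, 0.651 ± 0.0582 and 0.800 ± 0.0273, with overlap between days 15 and 20. MCM7 was the most abundant of the 6 per kilobase on each day, at 125 ± 0.574 CPM per kb at day 10, 54.0 ± 1.66 at day 15, 49.9 ± 1.30 at day 20 and 22.7 ± 0.468 at day 25. Merged exon lengths join all annotated isoforms, so a ratio's level depends on them while its change over days does not. Exons of AP4M1 on the other strand cover 8.9% of the merged MCM7 exons and those of TPRA1 and AC023593.1 cover 23.6% of MCM2, and whether counting used strand is not given in the sources used here.

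**Figure D3:**
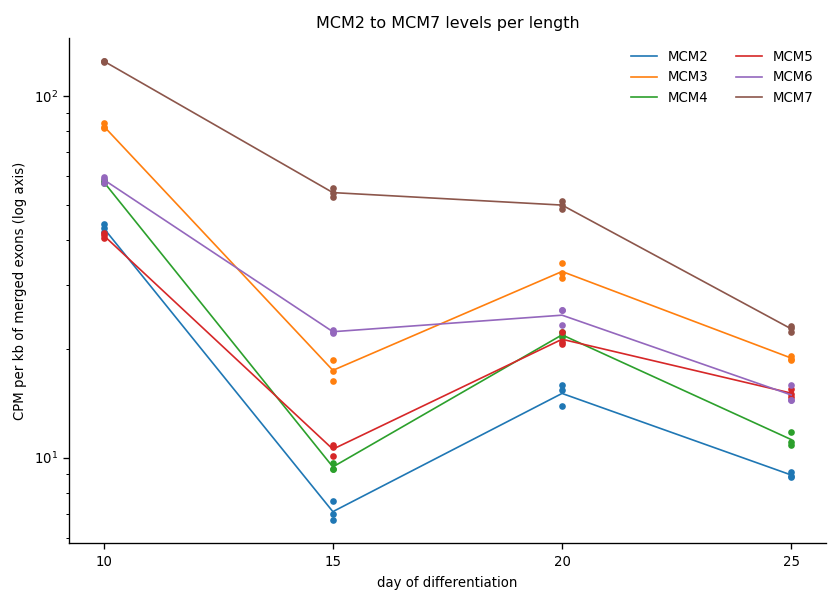
CPM per kilobase of merged exons (log axis) for MCM2 to MCM7 by day of differentiation, with points for libraries and lines for means. The lines of MCM7 and MCM6 lose less at day 15 and change little at day 20 with TMM scaling, and that of MCM5 climbs relative to MCM3 with each day, with overlap between days 15 and 20.

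Promoter sequence was set beside these movements because the 37 genes moved together. RefSeq windows of 300 bases on GRCh38.p14, from 250 before to 50 after a start, were found for 34 of the 37 genes, 48 windows in all. The words TTTGGCGC, TTTCCCGC, TTTCGCGC and TTTGCCGC, short forms of the E2F site, were searched on both strands, and matches that overlap were counted separately. At least 1 stood in 20 of the 48 windows (41.7%), against 3.31% of 35116 windows of all genes. Other gene lists held the E2F words as well, in 25% of the windows of the E2F and MuvB regulators, 20% of the other chromatin copying genes, 19.4% of the other replication factors, 16% of the mitosis genes and 6.67% of the other nucleotide genes. By gene, 19 of the 34 (55.9%) had a match at any start, against 3.99% of the 27305 genes with a window. In 16 of those 19 a match began within 60 bases of a start, which was not counted for other promoters. The CHR words TTTGAA and TTCGAA, the element through which MuvB complexes act on mitotic genes, stood in 3 windows (6.25%), against 16.4% of all windows and 76% of the windows of the mitosis genes. The CCAAT word, the NF-Y element, stood in 52.1% of the windows and in 34.6% of all windows, and in 80% of the windows of the mitosis genes, 52.8% of those of the other replication factors and 36.7% of those of the other nucleotide genes. These are word matches in sequence, described without a test, and they say nothing of binding in these cells. The windows shown are those of the helicase genes MCM6 and MCM7 and the loader CDC6, whose falls at day 15 differ in size, with POLE and RFC2, the genes that kept most at day 15, and PCNA, the most abundant per kilobase at day 10. Each is 5′ to 3′ on the gene's strand with E2F words in capitals.

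MCM6 (chr2:135876394-135876693, minus strand) held 2 pairs of overlapping matches, the first beginning 152 and the second 90 bases upstream of the start. MCM7 (chr7:100101348-100101647, minus strand) held matches that begin 187 and 9 bases upstream. The match of CDC6 (chr17:40287629-40287928, plus strand) begins 8 bases downstream. Those of POLE (chr12:132687293-132687592, minus strand) and PCNA (chr20:5126573-5126872, minus strand) begin 18 and 59 bases upstream. MCM7 and PCNA have windows at other starts as well, which held no E2F word and are not shown. RFC2 (chr7:74254350-74254649, minus strand) held none of the E2F, CHR or CCAAT words.
MCM6: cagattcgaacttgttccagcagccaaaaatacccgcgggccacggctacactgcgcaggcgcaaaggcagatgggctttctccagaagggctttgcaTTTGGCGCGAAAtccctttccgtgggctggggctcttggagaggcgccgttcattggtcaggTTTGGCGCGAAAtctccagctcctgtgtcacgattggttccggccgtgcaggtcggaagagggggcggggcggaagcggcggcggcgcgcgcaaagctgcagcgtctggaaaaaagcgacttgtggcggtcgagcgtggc
MCM7: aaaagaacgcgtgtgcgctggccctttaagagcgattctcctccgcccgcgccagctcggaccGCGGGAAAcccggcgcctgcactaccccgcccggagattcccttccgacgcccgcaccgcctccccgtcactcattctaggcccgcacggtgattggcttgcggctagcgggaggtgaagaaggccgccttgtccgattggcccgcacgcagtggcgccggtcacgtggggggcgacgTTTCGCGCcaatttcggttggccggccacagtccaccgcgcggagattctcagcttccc
CDC6: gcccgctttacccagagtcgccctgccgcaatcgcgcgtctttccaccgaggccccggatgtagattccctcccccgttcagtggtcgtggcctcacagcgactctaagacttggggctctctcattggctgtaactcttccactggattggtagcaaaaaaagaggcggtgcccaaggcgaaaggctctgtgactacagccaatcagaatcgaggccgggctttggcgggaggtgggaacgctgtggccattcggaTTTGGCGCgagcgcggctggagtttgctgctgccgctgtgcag
POLE: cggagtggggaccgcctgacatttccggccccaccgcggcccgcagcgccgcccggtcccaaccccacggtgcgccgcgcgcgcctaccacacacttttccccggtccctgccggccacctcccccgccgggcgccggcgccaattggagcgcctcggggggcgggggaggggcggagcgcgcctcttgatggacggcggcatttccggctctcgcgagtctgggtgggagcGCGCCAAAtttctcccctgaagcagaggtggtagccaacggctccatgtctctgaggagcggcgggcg
RFC2: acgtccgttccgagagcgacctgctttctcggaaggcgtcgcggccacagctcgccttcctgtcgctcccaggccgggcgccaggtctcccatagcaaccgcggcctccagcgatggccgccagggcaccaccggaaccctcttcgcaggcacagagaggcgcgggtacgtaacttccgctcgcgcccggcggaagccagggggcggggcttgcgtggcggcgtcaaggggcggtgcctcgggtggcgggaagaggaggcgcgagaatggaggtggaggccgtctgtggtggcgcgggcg
PCNA: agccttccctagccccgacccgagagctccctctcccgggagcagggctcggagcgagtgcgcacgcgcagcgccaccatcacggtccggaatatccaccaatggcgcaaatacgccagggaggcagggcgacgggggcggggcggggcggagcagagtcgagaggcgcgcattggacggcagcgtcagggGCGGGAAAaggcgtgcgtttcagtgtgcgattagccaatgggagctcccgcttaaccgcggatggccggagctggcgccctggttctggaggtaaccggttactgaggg

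Among these genes with a match, POLE kept 45.6% of its day 10 level at day 15, MCM7 43.3%, MCM6 38.0%, PCNA 23.8% and CDC6 14.9%. Without an E2F word in their windows, RFC2 kept 62.7% and RRM2 13.1%, the highest and the lowest share of the 37. The other genes without a word lay between them and are not listed here. Whether the matches relate to the size of the falls over the 34 genes was not tested.

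The loading factors ORC1, ORC6, CDC6 and CDT1 all fell at day 15, rose at day 20 and fell at day 25. CDC6 (ENSG00000094804, chr17:40287633-40304657, plus strand), the ATPase that brings the MCM ring to the origin, had 91.7, 90.5 and 91.7 CPM on day 10, 12.1, 14.7 and 13.9 on day 15, 28.2, 24.6 and 26.9 on day 20, and 11.9, 13.4 and 14.0 on day 25. It had the deepest fall of the group, -2.75 ± 0.078, adjusted p = 7.1e-31, and rose by 0.97 ± 0.082, adjusted p = 3.4e-14 at day 20. CDT1 (ENSG00000167513, chr16:88803213-88809258, plus strand), which escorts the MCM ring, had 133, 131 and 127 CPM on day 10, 27.6, 22.4 and 24.5 on day 15, 46.6, 46.7 and 48.7 on day 20, and 26.9, 25.7 and 27.3 on day 25. ORC1 (ENSG00000085840, chr1:52372829-52404459, minus strand), the largest subunit of the origin recognition complex, had 66.6, 68.2 and 72.4 CPM on day 10, 14.6, 18.4 and 14.3 on day 15, 27.1, 28.0 and 25.6 on day 20, and 13.0, 10.1 and 14.6 on day 25. For CDC6, CDT1 and ORC1 the day 10 libraries were highest and those of day 20 next, while those of days 15 and 25 overlapped. The fall at day 15 was -2.39 ± 0.062, adjusted p = 2.2e-32 for CDT1 and -2.13 ± 0.095, adjusted p = 7.4e-22 for ORC1. Between days 25 and 20, ORC1 fell by 1.11 on the log2 scale and CDC6 by 1.01 (adjusted p = 1.3e-12 and 6.4e-15). ORC6 regained the least at day 20, 0.33 ± 0.080, adjusted p = 0.00029.

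CDC45 and the 4 GINS genes, which complete the active helicase, fell by 2.00 to 2.57 on the log2 scale at day 15, all 5 of them, and all 5 rose at day 20. GINS1 (ENSG00000101003, chr20:25407727-25452628, plus strand) had 77.1, 86.5 and 84.4 CPM on day 10, 14.0, 13.7 and 14.0 on day 15, 34.3, 32.3 and 35.3 on day 20, and 19.2, 20.5 and 21.2 on day 25. Its fall at day 15 was -2.57 ± 0.074, adjusted p = 7.9e-31, and its gain at day 20, 1.29 ± 0.076, adjusted p = 2.2e-19, was numerically the largest of the 37 genes. CDC45 (ENSG00000093009, chr22:19479459-19520612, plus strand) had 68.4, 62.4 and 64.2 CPM on day 10, 11.3, 12.8 and 11.4 on day 15, 21.7, 21.2 and 18.5 on day 20, and 10.9, 8.78 and 10.2 on day 25. GINS4 (ENSG00000147536, chr8:41529206-41545046, plus strand) had 39.6, 37.2 and 35.2 CPM on day 10, 7.47, 6.57 and 7.27 on day 15, 10.8, 13.3 and 12.9 on day 20, and 8.86, 8.63 and 9.96 on day 25. For GINS1, CDC45 and GINS4 no days overlapped, and day 25 lay below day 15 for CDC45 and above it for the GINS genes. CDC45 gave -2.46 ± 0.089, adjusted p = 4.3e-27 and GINS4 -2.39 ± 0.11, adjusted p = 2.5e-23 at day 15, and at day 25 against day 20 CDC45 fell by 1.05 and GINS4 by 0.43 on the log2 scale (adjusted p = 2e-13 and 0.00064). The complex is built from 1 copy of each GINS subunit, and GINS3 kept more than its partners, with 59.6% of its day 10 level at day 20 against 41.1% for GINS1, 44.9% for GINS2 and 33.0% for GINS4. GINS3 was also the lowest of the 37 per kilobase at day 10, at 2.91 ± 0.502 CPM per kb, and had the widest SE of the group. Opposite-strand exons of AC009630.1 and AC009630.2 cover 23.6% of the merged GINS4 exons.

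The polymerases and primase fell at day 15 in all 7 genes and rose at day 20 in all 7. PRIM1 (ENSG00000198056, chr12:56731596-56752373, minus strand), the catalytic primase subunit, had 57.8, 57.4 and 56.7 CPM on day 10, 11.1, 8.22 and 11.7 on day 15, 22.5, 16.7 and 21.9 on day 20, and 10.9, 10.8 and 12.0 on day 25. POLE2 (ENSG00000100479, chr14:49643555-49688422, minus strand), the second subunit of polymerase epsilon, had 28.99, 29.1 and 29.1 CPM on day 10, 6.54, 6.09 and 5.18 on day 15, 9.67, 8.14 and 10.2 on day 20, and 4.29, 4.46 and 3.20 on day 25. POLD1 (ENSG00000062822, chr19:50384204-50418016, plus strand), the catalytic subunit of polymerase delta, had 186, 182 and 181 CPM on day 10, 40.1, 39.9 and 47.0 on day 15, 93.3, 91.5 and 94.4 on day 20, and 62.5, 69.7 and 68.6 on day 25. Days 25 and 15 overlapped for PRIM1, while for POLE2 day 25 was the lowest and for POLD1 day 15 was. At day 15 PRIM1 gave -2.46 ± 0.10, adjusted p = 6.2e-23, POLE2 -2.29 ± 0.13, adjusted p = 3.5e-20 and POLD1 -2.11 ± 0.054, adjusted p = 1.5e-32. POLE (ENSG00000177084, chr12:132623753-132687365, minus strand), the catalytic subunit of polymerase epsilon, had 141, 139 and 136 CPM on day 10, 60.8, 63.3 and 64.9 on day 15, 97.8, 105 and 108 on day 20, and 92.3, 101 and 95.6 on day 25. POLE lost less at day 15, -1.13 ± 0.048, adjusted p = 2.5e-24, and stood at 75.1% of its day 10 level at day 20 and 69.7% at day 25. It was the 1 gene of the 37 not called at day 25 against day 20, -0.11 ± 0.046, adjusted p = 0.056, and its libraries of those days overlapped. The call appeared without day 20 replicate 1 (log2 fold change -0.14, adjusted p = 0.018), without day 25 replicate 2 (-0.14, adjusted p = 0.026), under library-size scaling (-0.27), with no filter (-0.13) and with only the libraries of the days compared (-0.11). POLE2 fell the most of the 37 over that interval, -1.22 ± 0.13, adjusted p = 1.8e-10. Within libraries, POLE over POLE2 per kilobase was 0.846 ± 0.0168 at day 10, 1.91 ± 0.291 at day 15, 2.00 ± 0.265 at day 20 and 4.40 ± 0.803 at day 25, and only days 15 and 20 overlapped. POLE over POLD1, the leading-strand over the lagging-strand enzyme, was 0.224 ± 0.00165, 0.444 ± 0.0311, 0.331 ± 0.0171 and 0.428 ± 0.0129 on days 10, 15, 20 and 25. Same-strand exons of AP000944.2 cover 35.1% of POLA2. Exons of NACA and AC117378.1 on the same strand and of HSD17B6 on the other strand cover 21.6% of PRIM1. Mean NACA levels were 310, 233, 366 and 265 CPM on days 10, 15, 20 and 25, and their part in the PRIM1 counts was not tested.

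Clamp, clamp loader and maturation genes gave the other exception. FEN1 (ENSG00000168496, chr11:61792637-61797244, plus strand), the flap endonuclease of Okazaki fragments, had 159, 145 and 156 CPM on day 10, 35.0, 30.5 and 35.8 on day 15, 58.1, 56.1 and 54.2 on day 20, and 30.0, 28.4 and 29.5 on day 25. RFC3 (ENSG00000133119, chr13:33818049-33966558, plus strand), a clamp loader subunit, had 65.0, 66.9 and 66.3 CPM on day 10, 14.8, 16.6 and 12.8 on day 15, 25.9, 24.4 and 25.1 on day 20, and 15.1, 14.8 and 15.4 on day 25. RFC4 (ENSG00000163918, chr3:186789880-186807058, minus strand), another loader subunit, had 51.7, 54.9 and 55.9 CPM on day 10, 10.8, 14.3 and 12.1 on day 15, 26.8, 28.0 and 25.2 on day 20, and 13.0, 14.7 and 15.2 on day 25. Days 25 and 15 overlapped for RFC3 and RFC4 but not for FEN1, whose lowest libraries were those of day 25. Their falls at day 15 were -2.18 ± 0.058, adjusted p = 6.2e-32 for FEN1, -2.17 ± 0.080, adjusted p = 1e-26 for RFC3 and -2.13 ± 0.089, adjusted p = 1e-24 for RFC4. RFC4 had the largest gain of the group at day 20, 1.11 ± 0.091, adjusted p = 1.5e-14. RFC2 (ENSG00000049541, chr7:74231499-74254458, minus strand), a further loader subunit, had 59.4, 61.0 and 60.8 CPM on day 10, 39.7, 37.2 and 36.7 on day 15, 30.4, 32.9 and 30.4 on day 20, and 25.0, 23.1 and 21.1 on day 25. RFC2 lost the least of the 37 genes at day 15, -0.67 ± 0.067, adjusted p = 4.6e-12, keeping 62.7% of its day 10 level. At day 20 against day 15 it gave -0.28 ± 0.069, adjusted p = 0.00044, which became a rise of 0.34 under library-size scaling and was not called with no filter (-0.04, adjusted p = 0.66). Against the median of all genes tested RFC2 stood at -0.38 on the log2 scale under each of these settings. RFC2 over RFC4 per kilobase was 1.51 ± 0.0407 at day 10, 4.21 ± 0.733 at day 15, 1.59 ± 0.0526 at day 20 and 2.21 ± 0.376 at day 25. RFC5 over RFC4 was 0.600 ± 0.0338, 1.11 ± 0.175, 0.682 ± 0.0414 and 0.828 ± 0.0819, while RFC3 over RFC4 stayed between 0.985 ± 0.0685 and 1.27 ± 0.0372. RFC2 to RFC5 are partners in the same loader, and their RNA did not keep a fixed ratio across the days. PCNA, the clamp itself, was the most abundant of the 37 per kilobase at days 10, 15, 20 and 25, with 241 ± 2.64, 57.3 ± 1.64, 91.8 ± 6.04 and 52.0 ± 1.34 CPM per kb. MCM7 came near it at day 15, at 54.0 ± 1.66 CPM per kb. PCNA has 3 named pseudogenes, and RFC3, RFC5 and FEN1 have 1 each, whose reads could be split from theirs.

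**Figure D4:**
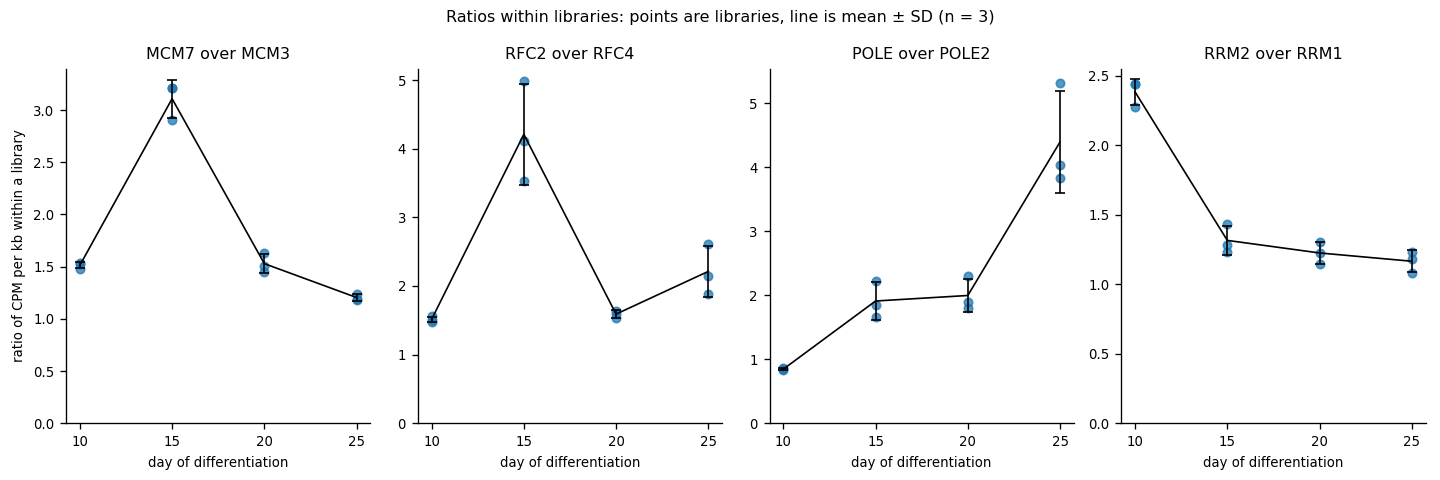
Ratios of CPM per kilobase of merged exons between partner genes within each library (y axis, starting at 0) by day of differentiation. Points are libraries, and the line and bars give mean ± SD (n = 3). MCM7 over MCM3 and RFC2 over RFC4 peak at day 15, POLE over POLE2 is highest at day 25, and RRM2 over RRM1 is highest at day 10.

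Of the 37 genes, RRM2 and TYMS, both of nucleotide synthesis, had numerically the deepest falls at day 15. The nucleotide synthesis genes as a group did not, with a median of -2.33 beside -2.39 for CDC45 and the GINS genes. RRM2 (ENSG00000171848, chr2:10120698-10131419, plus strand), the small subunit of ribonucleotide reductase that is made in S phase, had 499, 523 and 497 CPM on day 10, 64.4, 69.8 and 64.7 on day 15, 119.7, 117 and 118 on day 20, and 80.0, 74.8 and 84.9 on day 25. Its change at day 15 was -2.93 ± 0.044, adjusted p = 3.5e-41, a 7.64-fold fall, and at day 20 it rose by 0.84 ± 0.044, adjusted p = 5.9e-21. TYMS (ENSG00000176890, chr18:657604-673578, plus strand), thymidylate synthase, had 66.6, 71.2 and 66.0 CPM on day 10, 9.58, 9.62 and 10.9 on day 15, 21.4, 17.9 and 18.8 on day 20, and 10.8, 9.57 and 10.2 on day 25. TK1 (ENSG00000167900, chr17:78174075-78187233, minus strand), the cytosolic thymidine kinase, had 170.4, 157 and 152 CPM on day 10, 28.1, 29.4 and 37.7 on day 15, 73.3, 71.9 and 69.0 on day 20, and 40.7, 41.9 and 44.9 on day 25. The libraries of days 25 and 15 overlapped for TYMS and stood apart for RRM2 and TK1, with day 25 above. TYMS fell by 2.76 and TK1 by 2.33 on the log2 scale at day 15 (adjusted p = 4.4e-29 and 4.5e-24), and at day 20 TK1 gave 1.17 ± 0.072 and TYMS 0.95 ± 0.092. RRM2 over RRM1, the small over the large reductase subunit, was 2.38 ± 0.0960 at day 10, 1.32 ± 0.107 at day 15, 1.23 ± 0.0779 at day 20 and 1.17 ± 0.0803 at day 25, so the day 10 libraries stood above all others and the ratio did not return with the partial return of the genes. Exons of ENOSF1 and TYMSOS on the other strand cover 46.6% of TYMS. ENOSF1 itself was at 78.9 ± 2.45 CPM at day 10, 16.8 ± 1.98 at day 15, 53.7 ± 3.53 at day 20 and 53.6 ± 2.75 at day 25, and its part in the TYMS counts was not tested. Same-strand exons of AC007240.1 cover 20.2% of the merged RRM2 exons, and opposite-strand exons of AC023355.1 cover 14.5% of DUT. DUT has 8 named pseudogenes, RRM2 has 3 and TYMS has 2.

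The chromatin copying genes couple new DNA to histones and methylation. CHAF1A (ENSG00000167670, chr19:4402662-4445018, plus strand), the large subunit of the histone chaperone CAF-1, had 148, 149 and 144 CPM on day 10, 33.9, 32.5 and 30.5 on day 15, 47.1, 49.0 and 48.4 on day 20, and 36.4, 35.5 and 38.1 on day 25. CHAF1B (ENSG00000159259, chr21:36385378-36419015, plus strand), its middle subunit, had 38.4, 38.7 and 34.2 CPM on day 10, 10.8, 11.9 and 10.5 on day 15, 14.7, 17.1 and 14.8 on day 20, and 9.58, 9.02 and 7.68 on day 25. UHRF1 (ENSG00000276043, chr19:4903080-4962154, plus strand), which brings DNMT1 to hemimethylated DNA, had 103, 105 and 102 CPM on day 10, 33.5, 36.6 and 36.5 on day 15, 74.1, 79.3 and 78.9 on day 20, and 43.0, 45.3 and 43.1 on day 25. No days overlapped for these genes, and the lowest libraries were those of day 15 for CHAF1A and UHRF1 and of day 25 for CHAF1B. All 3 fell at day 15 with changes of -2.19 ± 0.055, adjusted p = 5.5e-33, -1.75 ± 0.10, adjusted p = 1.5e-19 and -1.54 ± 0.055, adjusted p = 2.8e-27 in that order. UHRF1 came back to 74.8% of its day 10 level at day 20, close to POLE at 75.1% and above the other 35 genes, while CHAF1A reached 32.8%. UHRF1 over CHAF1A per kilobase was 0.589 ± 0.00389 at day 10, 0.923 ± 0.0887 at day 15, 1.34 ± 0.0244 at day 20 and 0.999 ± 0.0603 at day 25.

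Days 25 and 15, both low, did not give a uniform picture. At day 25 against day 15, 19 of the 37 were called higher, 12 lower and 6 not called (CDC6, CDT1, POLA2, PRIM1, RFC3 and TYMS), but under library-size scaling 30 were higher and 3 lower, and with no filter 24 were higher and 4 lower. Of all genes tested, 40.2% were higher and 37.8% lower. The median was 0.11 for the 37 and 0.06 for all genes tested, and library-size scaling raised these to 0.57 and 0.52. Relative to the median of all genes, 21 of the 37 lay above and 16 below under both scalings. The largest falls were those of MCM7 (-1.25 ± 0.036, adjusted p = 9.8e-31), RFC2 (-0.71 ± 0.071, adjusted p = 3.9e-12) and MCM6 (-0.58 ± 0.047, adjusted p = 8.3e-15). On the higher side stood POLD1 (0.66 ± 0.055, adjusted p = 2.5e-14), GINS3 (0.72 ± 0.16, adjusted p = 0.00012) and POLE (0.61 ± 0.049, adjusted p = 4.7e-15). Single libraries decided several of the smaller calls. RFC5 (log2 fold change -0.21) lost its call when any 1 library except day 15 replicate 2 was left out, at -0.16 to -0.21. RFC4 lost its call without day 15 replicate 1 (0.13) or 3 (0.20) and without day 25 replicate 2 (0.20) or 3 (0.17). MCM3 lost it without day 15 replicate 1 (0.07) or 2 (0.11) and without day 25 replicate 1 (0.11). GINS2 lost its call without day 15 replicate 1 (0.19) or 2 (0.24) and without day 25 replicate 1 (0.17). ORC6 lost it without day 15 replicate 1 or day 25 replicate 3 (both -0.16). ORC1 lost its call without day 15 replicate 2 (-0.22) or day 25 replicate 2 (-0.18). CDC45 lost it without day 15 replicate 2 (-0.19) or day 25 replicate 2 (-0.15) and CHAF1B without day 25 replicate 3 (-0.25), while CDT1 gained one without day 15 replicate 1 (0.18).

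Further genes of the pathway followed the 37 with exceptions. Of 35 other replication factors, 32 fell and 2 rose at day 15 against day 10, 26 rose and 4 fell at day 20 against day 15, and 30 fell and 1 rose at day 25 against day 20. Their medians were -1.54, 0.64 and -0.60, beside 0.20, 0.10 and -0.03 over all genes. Under library-size scaling, where the median over all genes was 0.73, 32 rose and 1 fell at day 20. Of those reaching 10 CPM or more on either day, the deepest falls at day 15 were in DSCC1, a subunit of the cohesion clamp loader (-2.88 ± 0.12, adjusted p = 1.4e-24), and TICRR, which fires origins with TOPBP1 (-2.79 ± 0.10, adjusted p = 1.1e-26). POLD4, the small accessory subunit of polymerase delta, went the other way and had 30.5, 34.1 and 29.3 CPM on day 10, 68.8, 72.1 and 74.8 on day 15, 52.2, 52.4 and 54.2 on day 20, and 85.0, 82.0 and 77.4 on day 25. POLD4 rose at day 15 (1.20 ± 0.060, adjusted p = 8.5e-22) while POLD1 fell, and its lower level at day 20 (-0.44 ± 0.058, adjusted p = 5e-09) became a rise of 0.18 under library-size scaling. With TMM scaling, the topoisomerase TOP1 and the single-strand binding subunit RPA1 lost little at day 15, -0.31 ± 0.036, adjusted p = 2e-10 for TOP1 and -0.25 ± 0.040, adjusted p = 3e-07 for RPA1. Over that interval library-size scaling moved the median of all genes from 0.20 to -0.32. TOP1 and RPA1 were both lower again at day 20, -1.51 ± 0.038, adjusted p = 3.8e-33 and -0.53 ± 0.040, adjusted p = 1e-15, of which RPA1 turned to a rise of 0.09 under library-size scaling. By the same rule, POLD3 and POLE4, accessory polymerase subunits, had the largest gains at day 20, 1.56 ± 0.10, adjusted p = 8e-18 for POLD3 and 1.43 ± 0.13, adjusted p = 1.6e-13 for POLE4. The other rise at day 15, in ORC4, was small (0.17 ± 0.080, adjusted p = 0.048), with overlapping libraries, and turned to -0.36 under library-size scaling and -0.03 with no filter. It was not called when day 10 replicate 1 or 3, day 15 replicate 1 or 2, or any library of days 20 and 25 was left out (0.11 to 0.18).

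Other genes of nucleotide supply mostly moved with the 37, with exceptions. Of 27 other nucleotide genes, 22 fell and 4 rose at day 15 against day 10, 21 rose and 2 fell at day 20 against day 15, and 16 fell and 6 rose at day 25 against day 20 (medians -1.49, 0.97 and -0.34). CTPS1, a CTP synthase, fell at day 15 with a change of -2.88 ± 0.071, adjusted p = 3.7e-33. SAMHD1, which breaks deoxynucleoside triphosphates down, had 42.3, 44.4 and 44.0 CPM on day 10, 201, 198 and 193 on day 15, 399, 411 and 419 on day 20, and 661, 678 and 681 on day 25. SAMHD1 rose in every interval, 2.18 ± 0.038, adjusted p = 8.4e-39 at day 15, 1.06 ± 0.034, adjusted p = 6.6e-29 at day 20 and 0.72 ± 0.033, adjusted p = 1.5e-22 at day 25, and no libraries of different days overlapped. SAMHD1 is known as a gene of myeloid cells as well. The mean sum of 8 myeloid markers was 528, 6216, 21763 and 10971 CPM on days 10, 15, 20 and 25. This sum was lower at day 25 than at day 20, while SAMHD1 was higher. The part of myeloid cells in the SAMHD1 level was not tested. The salvage kinase DCK rose at day 15 (0.57 ± 0.056, adjusted p = 3.6e-12) and fell at day 20 (-1.58 ± 0.059, adjusted p = 1.6e-26), and DHODH, of pyrimidine synthesis, did likewise (0.70 ± 0.096, adjusted p = 1.7e-08 and -1.28 ± 0.099, adjusted p = 2.1e-15), but neither rise was called under library-size scaling (0.03 for DCK and 0.17 for DHODH). IMPDH1, of guanine nucleotide synthesis, and SHMT1, of folate metabolism, gained at day 20, 1.84 ± 0.060, adjusted p = 7.3e-29 and 1.70 ± 0.10, adjusted p = 8.9e-19. Unlike the 37, both rose again at day 25 against day 20, IMPDH1 by 0.42 and SHMT1 by 0.45. At day 25 against day 10, IMPDH1 was higher (2.06) and SHMT1 was not called (-0.09). Of 10 other chromatin copying genes, 9 fell and 0 rose at day 15, 6 rose and 3 fell at day 20, and 9 fell and 0 rose at day 25, each against the preceding sampled day. The median changes were -1.62, 0.40 and -0.53. Under library-size scaling, where the median over all genes was 0.73, 8 of the 10 rose and 2 fell at day 20. HELLS, a remodeller of heterochromatin, followed the 37 (-2.58 ± 0.071, adjusted p = 2.2e-31 at day 15 and 1.48 ± 0.073, adjusted p = 4.3e-22 at day 20). With TMM scaling, the histone chaperone ASF1A was not called at day 15 (-0.05 ± 0.066, adjusted p = 0.51) and fell at day 20 (-1.02 ± 0.069, adjusted p = 2.3e-17). The related chaperone ASF1B fell at day 15 (-2.48 ± 0.059, adjusted p = 8.4e-34), and MMS22L, which acts at stalled forks, rose at day 20 (1.06 ± 0.081, adjusted p = 1.6e-15). SLBP, which binds the stem-loop of histone mRNAs, had 130.1, 129 and 126 CPM on day 10, 103, 93.7 and 86.0 on day 15, 50.0, 59.8 and 53.2 on day 20, and 46.4, 42.9 and 40.0 on day 25. SLBP fell at day 20 against day 15, when most of the 37 rose (-0.79 ± 0.062, adjusted p = 2.9e-14).

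The activators E2F1 and E2F3, known to drive many of these genes, moved opposite to most of them in RNA over the first intervals. E2F3, an activator E2F, had 99.9, 105 and 101 CPM on day 10, 508, 483 and 486 on day 15, 56.7, 53.8 and 53.0 on day 20, and 51.7, 43.5 and 48.4 on day 25. E2F1, another activator, had 83.5, 85.5 and 84.8 CPM on day 10, 186, 190.5 and 192 on day 15, 30.4, 31.0 and 29.5 on day 20, and 18.7, 22.4 and 21.4 on day 25. At day 15, when all 37 genes were lower, E2F3 rose by 2.27 ± 0.045, adjusted p = 1.3e-36 and E2F1 by 1.16 ± 0.049, adjusted p = 1.4e-24. At day 20, when 35 of the 37 rose with TMM scaling and 37 with library-size scaling, E2F3 gave -3.18 ± 0.047, adjusted p = 2.3e-41 and E2F1 -2.65 ± 0.053, adjusted p = 1.3e-36. The libraries of days 15 and 10 and of days 20 and 15 did not overlap for either gene. TFDP1, the partner with which E2F proteins bind DNA, followed the 37 instead, at 186 ± 8.33 CPM at day 10, 47.1 ± 1.08 at day 15, 119.8 ± 3.63 at day 20 and 96.2 ± 4.25 at day 25 (mean ± SD, n = 3). So did E2F8, a repressor E2F (-2.34 ± 0.12, adjusted p = 5.8e-22 at day 15 and 1.65 ± 0.12, adjusted p = 1.8e-16 at day 20) and FOXM1, the driver of mitotic genes (-2.42 ± 0.061, adjusted p = 6.8e-33 and 1.15 ± 0.062, adjusted p = 1.2e-20). LIN9, a core subunit of MuvB, fell at day 15 as well (-2.40 ± 0.15, adjusted p = 6.3e-19). Of the 19 E2F and MuvB regulators, 6 rose and 12 fell at day 15, 10 rose and 7 fell at day 20, and 0 rose and 15 fell at day 25, while under library-size scaling 2 rose and 16 fell at day 15 and 11 rose and 5 fell at day 20. Their medians were -0.49, 0.14 and -0.38 over the 3 intervals with TMM. With TMM, the share of all genes tested that was higher was 42.4%, 40.6% and 24.5%, and the share lower was 30.8%, 36% and 25.1%, so the 7 lower regulators of 19 at day 20 are near the background. Under library-size scaling the medians over all genes were -0.32 at day 15 and 0.73 at day 20. RNA alone was measured, so E2F protein and its activity are not known here.

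**Figure D5:**
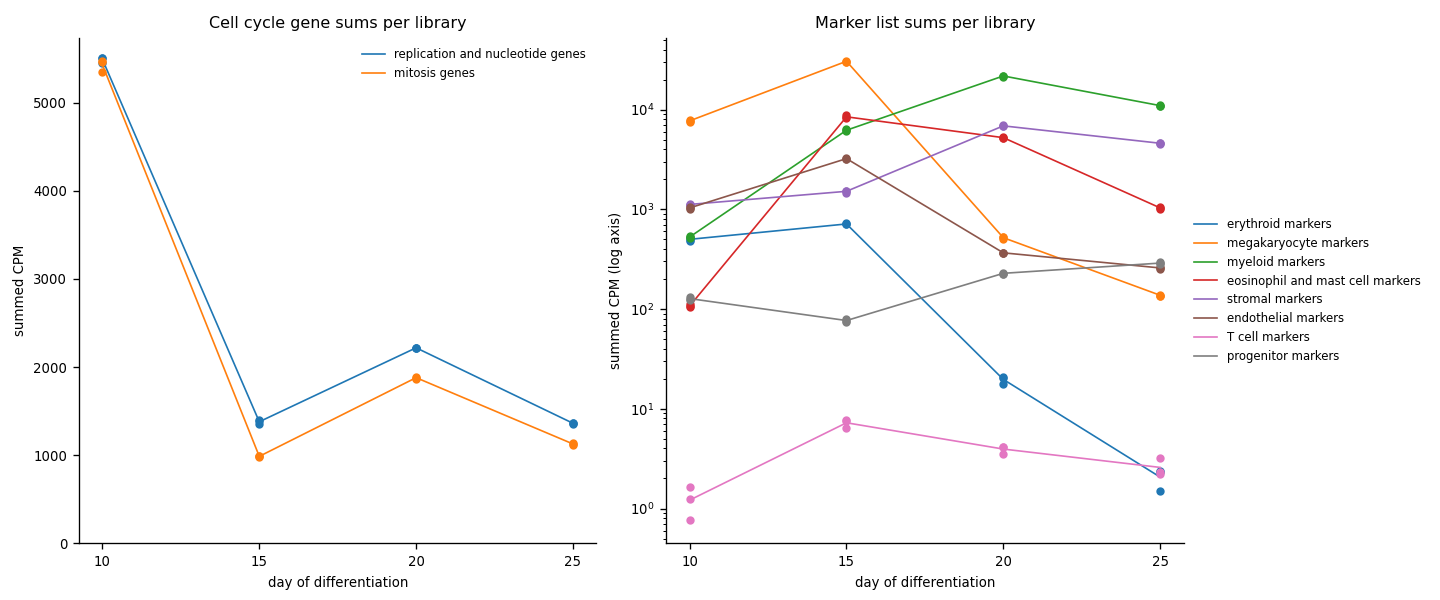
Summed CPM per library by day of differentiation, for the 37 genes and 28 mitosis genes (left, linear axis from 0) and for lists of cell type markers (right, log axis), with points for libraries and lines for means. Both sums at left are highest at day 10 and have a second, lower peak at day 20, while the marker sums at right change over the same days.

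Of 28 mitosis genes, all 28 fell at day 15, 27 rose and 1 fell at day 20 and all 28 fell at day 25, each against the preceding sampled day, with medians of -2.50, 1.03 and -0.79. Under library-size scaling, where the median over all genes was 0.73, 27 rose and 0 fell at day 20. The gene that fell at day 20 with TMM scaling was BUB1, a spindle checkpoint kinase (-0.72), named after its value was seen. At day 25 against day 15, 20 mitosis genes were higher and 2 lower with a median of 0.32, where 19 of the 37 were higher and 12 lower with a median of 0.11. This difference between the lists was not tested. Their sum was 5431 ± 68.1 CPM at day 10, 987 ± 4.03 at day 15, 1880.0 ± 12.1 at day 20 and 1128 ± 9.11 at day 25. Markers of several cell types changed over the same days. Summed CPM over the libraries of days 10, 15, 20 and 25 was 7592 to 7848, 30268 to 31033, 509 to 526 and 136 to 140.0 for 9 megakaryocyte markers. For 8 myeloid markers it was 522 to 536, 6042 to 6395, 21471 to 21915 and 10918 to 11048. For 6 eosinophil and mast cell markers it was 104 to 112, 8238 to 8765, 5176 to 5350.2 and 1017 to 1055. Day 15, where the replication genes had their deepest median fall against day 10, had the highest sums for several lists. These were the megakaryocyte, the eosinophil and mast cell, the erythroid, the endothelial and the T cell markers. Myeloid and stromal sums were highest at day 20 and progenitor sums at day 25. For 11 erythroid markers the sum was 485 to 519.7, 705 to 728, 17.9 to 20.9 and 1.50 to 2.36, with HBE1 and AHSP among those at 0 at day 25. For 6 stromal markers it was 1109.8 to 1139, 1472 to 1541, 6836 to 6953 and 4555 to 4629.9, and for 5 endothelial markers 1019.8 to 1059, 3204 to 3259, 365 to 368 and 254 to 266. For 6 progenitor markers it was 124 to 133, 74.0 to 80.0, 226 to 232 and 284 to 294. The progenitor sum was thus lowest at day 15 and highest at day 25, while all of the 37 genes were highest at day 10. The part of these cell types in the levels of the replication genes was not tested.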

How the data were processed

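Bulk RNA-seq libraries from 12 samples of differentiating H9 cells, 3 at each of 4 days, were prepared with the ligation-mediated LM-Seq protocol and sequenced as single reads, per the labels' protocols. The authors deposited whole-number read counts per gene and library, not normalized, and per the file headers the columns carry the names of sorted alignments. Per the submitters' processing notes, reads were placed on GRCh38. Which aligner, counter, annotation and strand setting were used is not given in the sources used here.

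Libraries were grouped by the labelled day and all were kept. The fit was made in R 4.3.3 with edgeR 4.0.16: filterByExpr at a minimum count of 10 (20183 of 36601 gene IDs kept), TMM scaling, and a robust quasi-likelihood fit (glmQLFit, glmQLFTest) of all 12 libraries with day as the factor and no covariates. The common biological coefficient of variation was 6.03%. All 6 pairs of days and a joint test over the 4 days were tested, with Benjamini-Hochberg adjustment over all genes in each. An SE is the size of the log2 fold change divided by the square root of the F statistic. IDs without a symbol (235, with 0.091% of counts) stayed in the tests. The fitting code was tested on simulated data. Replicates of a day gave chi-square values of 3.49 to 5.16 per degree of freedom, so none was an exact copy of another. Genes counted 2 times outnumbered those counted once in every library, so counts may not be independent molecules. The chi-square takes counts as independent, so these values do not show that replicates differ by more than sampling noise.

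Exon lengths and coordinates are from GENCODE 29, and promoter windows are from RefSeq. The genes described and the gene lists were chosen with earlier results of these data known. Up to 3 genes per role, those with the largest change in any interval, are given by library, together with those whose calls departed from their role (MCM7, RFC2 and POLE). Other pathway genes are the 2 largest rises and falls per list at day 15 against day 10 and at day 20 against day 15, among genes that reach 10 CPM on the higher of the days. A gene that this rule names in the nucleotide list is not reported here.

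The alternatives tried were library-size scaling, DESeq2 size factors, leaving out 109 mitochondrial, ribosomal protein and haemoglobin genes, no filter, an adjusted p under 0.01, a replicate block, fits to only the libraries of the days compared, the Wald test of DESeq2 1.42.0, and leaving out each library in turn. Figures were drawn with matplotlib 3.10.9 in Python 3.11.15, with pandas 2.3.3 and numpy 2.4.6.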

Additional observations from a re-analysis of the deposited data

How the results depend on the processing

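The counts of genes lower at day 15 against day 10 (37), day 20 against day 10 (37) and day 25 against day 10 (37) were the same under every alternative run. At day 20 against day 15, the 2 lower genes became 0 under library-size scaling, where RFC2 was 0.34 and MCM7 0.51 on the log2 scale, and 0 with no filter, where MCM7 was 0.12. At day 25 against day 20 the lower count lay between 36 and 37 when each library was left out. Day 25 against day 15 depended most on the setting. Library-size scaling gave 30 genes higher and 3 lower, and reversed ORC1 (0.12), FEN1 (0.25), POLA2 (0.44), RFC5 (0.25), ORC6 (0.24), CDC6 (0.41), PCNA (0.32), CHAF1B (0.12), CDC45 (0.21) and POLA1 (0.17), while no filter gave 4 lower and reversed FEN1 (0.0039), POLA2 (0.20), RFC5 (0.0074), CDC6 (0.17) and PCNA (0.072). These settings shift all genes of a day together: relative to the median of all genes, 21 of the 37 lay above it and 16 below under each of them. Leaving out each library gave 17 to 19 higher and 9 to 11 lower, and the sign changed for genes near 0 that were not called: POLA2 (-0.0323 to 0.030), PRIM1 (-0.019 to 0.21), RFC3 (-0.048 to 0.13), CDC6 (-0.12 to 0.027) and TYMS (-0.0099 to 0.093). Over the 37 genes and all comparisons and alternatives, 4350 values kept their call and direction, 49 lost a call, 14 gained one and 27 reversed, and without day 25 against day 15 these were 3691, 1, 5 and 3. Such totals include fits without a library of a day not compared, which could change little. They also include the stricter adjusted p, which cannot change a direction.

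Replicate numbers did not pair the libraries: deviations from the day means correlated at -0.0164 to 0.0156 over 18 same-numbered pairs, and 4 of 12 libraries correlated best with their own number. With a replicate block, 30 genes were called at day 25 against day 15, where 31 were called without it, and 37, 37, 36, 37 and 37 in the other comparisons, as without it. All 37 genes were counted in every library, and depth limits the low ones most: GINS3, the lowest per kilobase, had the widest SE at day 15 against day 10. Further limits are the unknown strand setting, the unknown origin of the replicates and the mixture of cell types in bulk RNA.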
